A study of Mus musculus with 4 samples.

Results

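TLE3-bound regions of mouse inguinal adipocytes were compared with the input chromatin of the same depot, region by region. The members were all 50456 regions of the deposited inguinal TLE3 list, out of 69599 regions in the merged lists of 3 fat depots. The experiment was chromatin immunoprecipitation with sequencing (ChIP-seq) on cells of male NMRI mice aged 4 to 5 weeks. Stromal-vascular cells of inguinal white fat, pooled from 10 to 15 mice, were turned into fat cells by culture with insulin (30 nM) and rosiglitazone (1 µM), an agonist of the nuclear receptor PPARγ, and were harvested on day 8. Only cultures with over 50% differentiation were kept, so the rest of the cells need not be adipocytes. TLE3 is the library made from these cells with an anti-TLE3 antibody, and input is the library from inguinal adipocytes with no antibody. The labels describe 1 fixation for the TLE3 material, disuccinimidyl glutarate at 2 mM for 15 min and then formaldehyde at 1% for 30 min. The other TLE3 libraries, from epididymal white fat and brown fat cells cultured in the same way, have no input of their own depot here. Each group held 1 library, so no difference carries a test. Intervals of folds are 95% intervals for counting error in reads alone. Those of shares are Wilson 95% intervals that take regions or genes as independent draws. Neither kind covers the spread between cultures. Binding data hold no expression, so the cell type could not be checked against its markers.

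TLE3 belongs to the Groucho corepressors, proteins that do not bind DNA themselves. DNA-bound factors such as TCF, RUNX and HES proteins bring them to chromatin, where they recruit histone deacetylases. In fat cells TLE3 is known as a partner of PPARγ in adipocyte differentiation and as an opponent of the thermogenic program. Input chromatin is sequenced without enrichment and is known to vary along the genome, with more reads where chromatin is open or present in more copies.

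Values are reads in a region of 231 bases, scaled by the authors to a common library total. One read was worth 0.526 scaled reads in the TLE3 library and 0.651 in the input. If the common total was 10 M reads, the libraries held 19.0 M and 15.4 M reads, and the listed regions took 24.0% of TLE3 reads and 0.846% of input reads. The list began at 15 scaled reads (29 reads) and at 10 times the input, and no other merged region met both limits. The fold over input was thus fixed in part by the listing and is given as a description.

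The promoters below show the range of sequence under strong inguinal regions. They are the bases upstream of the start site that each region covered, from RefSeq (build GRCm38.p6, placed by the deposited distance to the start site), 5′ to 3′ on the gene's strand. Capitals mark matches, on either strand, to 10 motifs. C/EBP factors were searched as TTGCNNAA, and the activator family AP-1 was searched as TGANTCA. Nuclear receptors were searched with the letters AGGTCA, while the box of Sp factors was searched as GGGCGG. The box named CCAAT was searched by its own letters, and for TCF proteins the letters were CTTTGA. The RUNX motif searched here was TGTGGT, the E-box of helix-loop-helix proteins was searched as CACGTG. The EBF motif was the letters TCCC followed after any 2 bases by GGGA, and the NFI motif was the letters TTGGC followed after any 5 bases by GCCAA. Motifs may overlap. Hal encodes histidine ammonia lyase (chr10:93488523-93488753, plus strand). H6pd encodes a hexose-6-phosphate dehydrogenase of the endoplasmic reticulum (chr4:150003237-150003465, minus strand). Osmr encodes the oncostatin M receptor (chr15:6874314-6874527, minus strand). Olr1 encodes a receptor for oxidised low-density lipoprotein (chr6:129507166-129507347, minus strand).
Hal: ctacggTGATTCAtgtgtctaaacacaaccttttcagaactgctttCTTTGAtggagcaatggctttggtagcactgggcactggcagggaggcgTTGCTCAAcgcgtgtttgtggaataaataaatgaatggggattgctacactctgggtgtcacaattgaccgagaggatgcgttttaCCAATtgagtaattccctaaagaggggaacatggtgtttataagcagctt
H6pd: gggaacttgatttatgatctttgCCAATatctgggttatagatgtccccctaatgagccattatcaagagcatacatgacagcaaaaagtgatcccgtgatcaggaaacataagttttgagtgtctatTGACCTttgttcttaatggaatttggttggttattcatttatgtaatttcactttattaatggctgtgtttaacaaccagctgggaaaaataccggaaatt
Osmr: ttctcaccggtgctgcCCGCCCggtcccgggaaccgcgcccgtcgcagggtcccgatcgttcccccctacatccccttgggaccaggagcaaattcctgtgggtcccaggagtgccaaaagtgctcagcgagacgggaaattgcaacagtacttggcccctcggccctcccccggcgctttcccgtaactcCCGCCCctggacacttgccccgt
Olr1: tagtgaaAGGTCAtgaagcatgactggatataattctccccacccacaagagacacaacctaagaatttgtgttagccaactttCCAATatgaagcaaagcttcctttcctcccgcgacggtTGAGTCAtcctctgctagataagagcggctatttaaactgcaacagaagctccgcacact
The Hal region had 191 scaled reads of TLE3 and 7.16 of input, and its sequence holds C/EBP, AP-1, CCAAT and TCF matches at 45.0% GC. The H6pd region had 168 against 2.60 at 35.8% GC. Osmr, with GC boxes and 66.4% GC, had 151 against 7.81. Olr1 had 116 against 5.21 at 45.0% GC.

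Over all 50456 regions the TLE3 value had a median of 35.7 scaled reads, with the middle 50% between 23.1 and 59.9, and reached 268. Input had a median of 1.30, which is 2 reads, and a mean of 1.68. Pooled over all regions, TLE3 stood 28.3-fold over input (28.2 to 28.5), and the median region 22.2-fold. Input had 0 reads in 8595 regions (17.0%), which allows up to 3 reads or 1.95 scaled reads. For those regions the fold was taken against that floor. A region was called when the lower bound of its own interval lay above 10-fold. That held for 15717 regions, 31.1% of the listed and 22.6% of all merged regions.

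Input rose with TLE3. From regions of 15 to 30 scaled reads to those of 30 to 60, 60 to 100 and over 100, mean input went from 0.854 to 1.69, 2.63 and 3.67. The pooled fold was 25.4, 25.3, 29.1 and 36.4 in the same order. Called regions made up 5.58% of the weakest and 89.9% of the strongest group. Regions with 0 input reads had a median TLE3 value of 24.7, and those with 5 reads one of 54.6, as the plot of TLE3 by input reads shows. The listing limit rises with input too, and 5 input reads require a TLE3 value of 32.5.

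**Figure D1:**
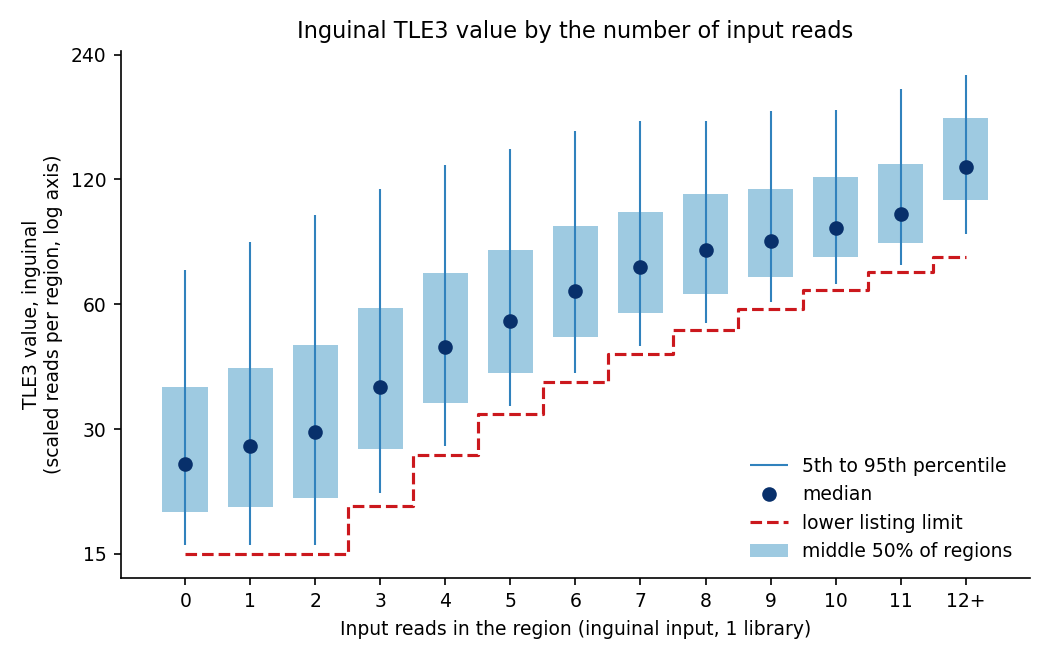
TLE3 value (scaled reads per region, log axis) against the number of input reads in the region, for the 50456 listed regions. Points are medians, boxes the middle 50%, lines the 5th to 95th percentile, and the dashed line the lower listing limit; the medians go from 24.7 at 0 input reads to 128.8 at 12 or more.

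The strongest regions carried input as well. The highest value lay in intron 1 of Pknox2, a homeobox factor gene (chromosome 9, 36950974 to 36951204, mm9), with 268 scaled reads of TLE3 and 10.4 of input, a fold of 25.7 (15.7 to 45.4). An intron of an RNA near Tasp1, which encodes a threonine protease, had 267 against 14.3 (chromosome 2, 139745533 to 139745763). Next came regions nearest to 1700112H15Rik (258), 1700027A15Rik (256), Frem3 (253), Mboat2 (250.2), Aldh1a2 (249.6), Sall1 (248), Tmem8b (247.5) and Efna5 (247.0). Mboat2 is a phospholipid acyltransferase and Aldh1a2 makes retinoic acid. Among these 10, input ran from 3.90 at Efna5, an ephrin gene 1501.8 kb away, to 14.3 at Tasp1 and Frem3. The Efna5 region (chromosome 17, 61728729 to 61728959) thus had 63.3-fold (28.9 to 173), and the Frem3 region 17.6-fold (11.5 to 28.4).

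Ordering by the lower bound of the fold gave other genes, all with 0 input reads. A region in intron 1 of Aplp2, an amyloid precursor-like protein gene, had 182 scaled reads (chromosome 9, 30988931 to 30989161), 93.2-fold against the floor of 3 input reads. Its lower bound was 75.4 when counting error in TLE3 and the 0 input reads are taken into account. Fgd3, a guanine nucleotide exchange factor gene, had 163 in intron 1, 83.8-fold against the floor with a lower bound of 67.7. Bscl2 encodes seipin, a protein of lipid droplet formation. Its region in intron 3 had 145 (chromosome 19, 8918883 to 8919113), 74.3-fold against the floor with a lower bound of 60.04. The other 7 lay 168 to 531 kb from the nearest start site and were intergenic: Cblb, A530072M11Rik, Sema3d, Gm30551, Phex, Zfp462 and Cwc27, with 148 to 159 scaled reads.

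The highest input values were at Trim67 (15.0), 4933405E24Rik, Galk2 and Tasp1 (each 14.3). Their TLE3 values were 182, 144, 207 and 267, and the folds lay between 10.1 and 18.7. Weak members rested on few reads. Mrpl15, Cpa6 and Mir6341 marked regions with 15.2 scaled reads of TLE3, and Xkr4, Ncoa2 and Eya1 regions that missed the list with 14.7. At the other limit, 5730435O14Rik and Ier2, an immediate early gene, both had 84.6 against 8.46 and Dusp14 65.2 against 6.51. Sbno2, Phlda1 and Lep, the leptin gene, had a region each with 52.0 against 5.21, a ratio of 9.99, and were not listed there.

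By annotation, 25795 regions (51.1%) were intergenic, 22465 (44.5%) intronic and 889 (1.76%) at promoters. Promoters had the higher TLE3 value and the lower fold. The median TLE3 value was 41.0 scaled reads at promoters, 35.2 in introns and 36.3 between genes. Mean input was 2.51, 1.68 and 1.63. The pooled fold was 19.9 (19.2 to 20.6) at promoters, 27.5 (27.3 to 27.7) in introns and 29.8 (29.5 to 30.0) between genes. Of the promoter regions 19.6% were called, against 33.2% of the intergenic ones.

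The small gene-body classes lay between. The 277 exon regions had a fold of 22.6 (21.0 to 24.2), 402 in 3′ UTRs 26.1 (24.5 to 27.8), 477 at transcript ends 24.1 (22.8 to 25.4) and 113 in non-coding exons 22.9 (20.6 to 25.6). The 38 regions in 5′ UTRs had 18.2 (15.4 to 21.5), an interval that overlaps that of promoters. In 57 regions annotated as CpG islands mean input was 3.32, none had 0 input reads, and the fold was 16.6 (14.8 to 18.8). The strongest of them was 4.33 kb upstream of Tle2, itself a Groucho gene, with 185 against 9.76.

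**Figure D2:**
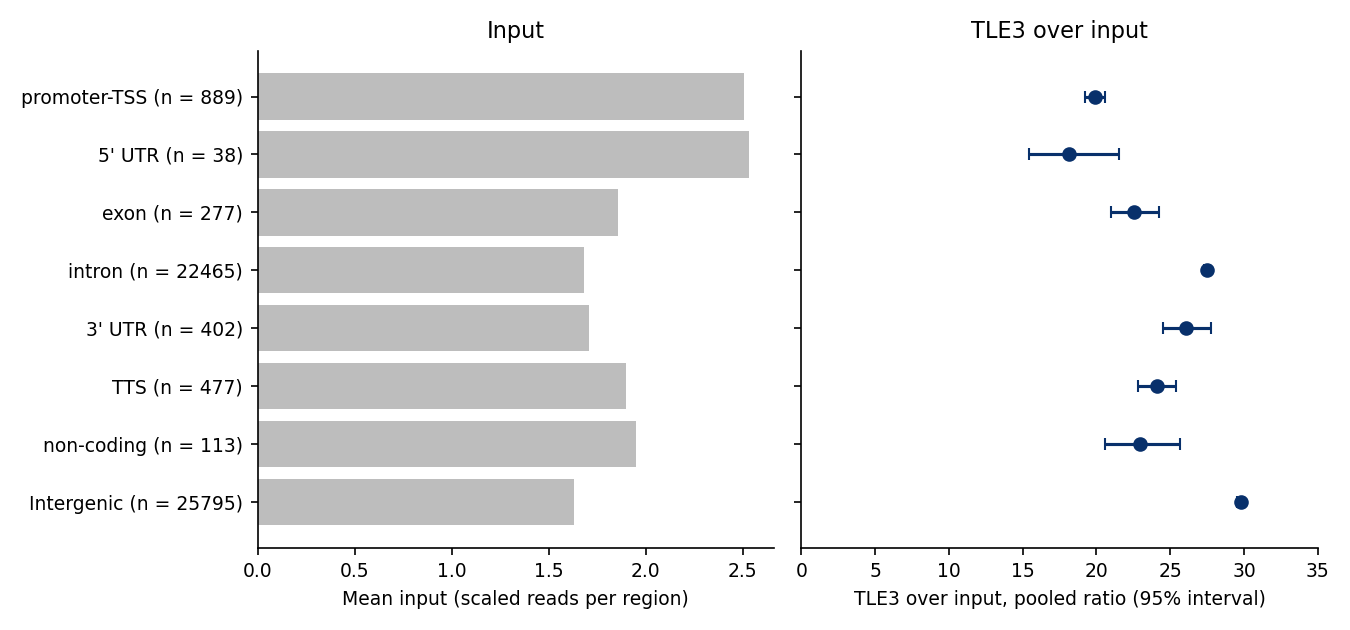
Mean input (left, scaled reads per region) and pooled TLE3 over input (right, with 95% counting intervals) by annotation class, n regions in brackets. Promoters and 5′ UTRs have mean input above 2.5 and folds below 20.

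The strongest region of each class showed how far single sites could depart from their class. At promoters these were Ankmy1 (235 scaled reads of TLE3, 7.16 of input), Camp, the gene of the antimicrobial peptide cathelicidin (232, 10.4), Hal (191, 7.16) and Pkig, an inhibitor of protein kinase A (179, 4.56). Then came H6pd (168, 2.60), Nnt, a mitochondrial transhydrogenase (166, 7.16), Ddhd2, a lipase (164, 11.7), and E030025P04Rik (163, 4.56). Tbce, a tubulin-folding cofactor, followed (159, 1.95). Folds among those named ranged from 14.0 (8.74 to 24.0) at Ddhd2 to 81.7 (27.7 to 398) at Tbce. Elsewhere the strongest were in the 5′ UTR of Acoxl (159, 3.90), an exon at Mpdz (149, 3.90), the 3′ UTR of Ctsc (198, 4.56), the end of Spata45 (188, 4.56) and a non-coding exon near Bmf (189, 13.0).

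Distance from a start site ordered the fold. It was 17.5 (16.3 to 18.8) within 100 b, 20.6 (19.97 to 21.3) up to 1 kb, 24.5 up to 5 kb, 25.7 up to 10 kb, 26.9 up to 50 kb, 29.2 up to 100 kb, 33.1 up to 500 kb and 44.6 (42.6 to 46.5) beyond. The plot by distance shows that input varied more along this scale than TLE3. Mean TLE3 was 48.4 scaled reads within 100 b and 43.3 beyond 500 kb, while mean input went from 2.77 to 0.973. By medians TLE3 fell too, from 42.8 to 31.5, while input went from 2.60 to 0.650. Input had 0 reads in 3.89% of regions within 100 b and in 30.7% of the 1406 beyond 500 kb. Within 1 kb lay 1311 regions (2.60%), with 20.1-fold (19.5 to 20.7) against 28.7 for the rest.

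**Figure D3:**
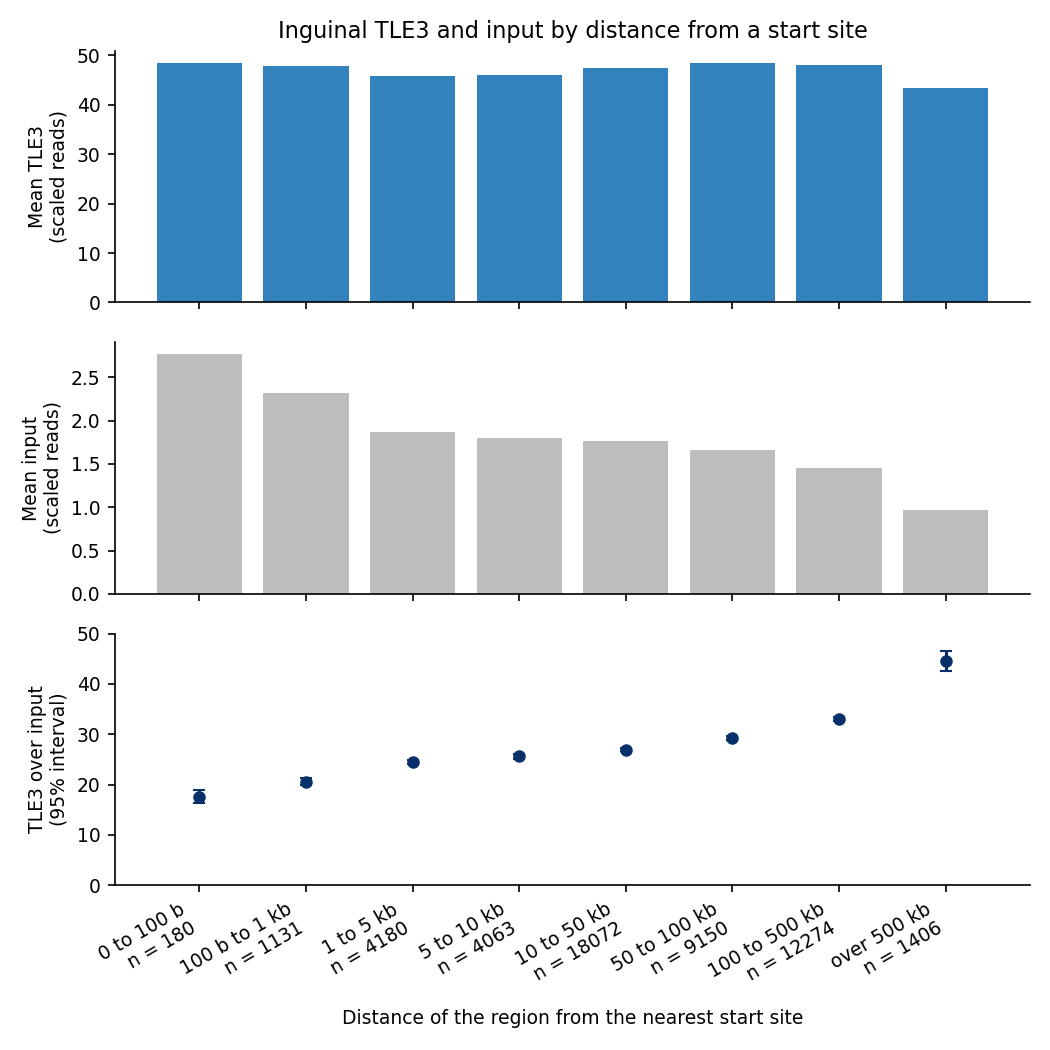
Mean TLE3 (top), mean input (middle, both in scaled reads per region) and pooled TLE3 over input with 95% counting intervals (bottom) by distance from the nearest start site. Mean TLE3 stays between 43 and 49 while mean input falls and the fold goes from 17.5 to 44.6.

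Around the start site the regions were placed unevenly. The 200 bases upstream held 274 regions, the 200 bases downstream 82 and the next 200 downstream 54. Mean TLE3 in these bins was 51.1, 47.8 and 51.9 scaled reads, with standard errors over regions of 2.03, 3.04 and 4.78. The fold was 18.8 (17.7 to 19.9), 16.6 (14.9 to 18.4) and 20.9 (18.2 to 24.2). Mean input was 2.89 in the first 200 bases downstream, the highest of the 20 bins. Over the whole 1 kb, the 814 upstream regions had a median TLE3 of 41.3 and the 497 downstream ones 34.7, with folds of 20.1 in both.

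**Figure D4:**
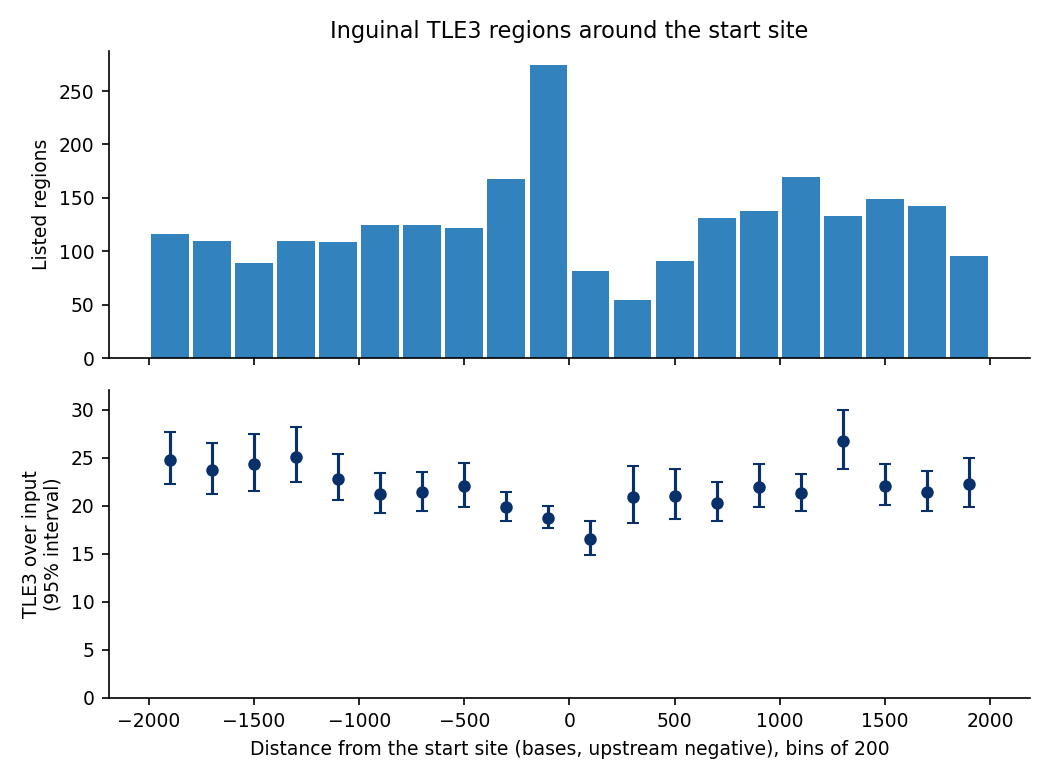
Number of listed regions (top) and pooled TLE3 over input with 95% counting intervals (bottom) in bins of 200 bases around the start site, upstream negative. The count is 274 just upstream and 82 just downstream, where the fold is 16.6.

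The gap between promoters and distal regions was present at every TLE3 level. For regions of 15 to 30 scaled reads the fold was 19.3 within 1 kb and 25.6 beyond. It was 18.2 against 25.6 from 30 to 60, 20.3 against 29.4 from 60 to 100, and 25.5 against 36.7 above 100. At 593 genes with both a promoter and a distal region within 50 kb, the promoter value exceeded the gene's median distal value in 307 (51.8%, 47.8 to 55.8%). Their median values were 43.1 at promoters and 40.7 at distal regions. The pooled fold at the same genes was 19.9 at promoters and 27.1 at distal regions.

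Promoters missed the limit against input more often than intronic or intergenic regions did. The regions that missed it are in the data only through another depot's list. The shares below therefore do not cover all regions that the limit removed. Of the 54214 merged regions that reached 15 scaled reads, 3758 (6.93%) missed 10 times the input. Among them were 16.5% (14.4 to 18.9%) of the promoter regions, 7.48% of intronic, 5.86% of intergenic and 0.776% (0.434 to 1.39%) of those beyond 500 kb. The epididymal list was limited by the epididymal value, at 10 times the same input, and 34055 of its 51015 regions are in the inguinal list too, so it is no independent set. Over those 51015 regions the inguinal fold was 23.1, with 16.1 at promoters, 24.7 between genes and 37.3 beyond 500 kb. The 19143 merged regions outside the inguinal list each missed a limit, so their low values were set in part by the listing. Their median inguinal value was 9.98 and their fold 8.13 (8.04 to 8.21). Of these regions, 505 lay below their input.

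Other TLE3 libraries shared some of the pattern at these regions. Mean input within 1 kb was 1.44 times that beyond. The same ratio was 1.01 for inguinal, 1.16 for epididymal and 1.16 for brown-fat TLE3. Beyond 500 kb the ratio to the rest was 0.573 for input, 0.910 for inguinal, 0.695 for epididymal and 0.715 for brown-fat TLE3. Mean values there were 43.3, 28.8 and 12.04 scaled reads in the 3 TLE3 libraries. The regions were listed on the inguinal value and the input, which bounds those libraries and not the other two, so the ratios are not on an equal footing.

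Regions far from genes included strong ones. Sall1, a zinc finger factor gene, was the nearest gene, 620 kb away, to a region with 248 scaled reads and 9.76 of input (chromosome 8, 92187870 to 92188100). Hs6st1 (232, 5.21), Gm1653 (214, 5.21) and Fam181b (213, 1.30) followed after Efna5. The last had 164-fold over 2 input reads (45.0 to 1355). In matched TLE3 levels the fold beyond 500 kb was 37.9, 40.2, 51.2 and 56.9, against 25.2, 25.0, 28.8 and 36.0 for the rest. On autosomes alone it was 44.5 against 27.9.

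The X chromosome stood apart in both libraries. Male cells carry a single X. Its 1204 regions had a mean input of 0.836 scaled reads against 1.70 on autosomes, a ratio of 0.493. The same ratio was 0.727 for inguinal, 0.684 for epididymal and 0.697 for brown-fat TLE3. The fold was 41.5 (39.5 to 43.7) on X and 28.2 on autosomes, whose folds ran from 26.2 on chromosome 11 to 30.4 on chromosome 3. The median fold per region was 21.0 on X and 22.2 on autosomes, and 30.6% (28.0 to 33.2%) and 31.2% (30.8 to 31.6%) were called. Over all regions the pooled fold alone of these 3 measures was thus higher on X. For the median fold, regions with 0 input reads were set at the floor of 3 reads, above regions with 1 or 2. Such regions made up 36.0% on X and 16.6% on autosomes, so the median folds are not on an equal footing. TLE3 values were lower on X (median 27.3 against 36.3). At matched TLE3 levels the called share was 8.175%, 48.4%, 89.4% and 96.7% on X, from weakest to strongest. On autosomes the share was 5.485%, 30.25%, 64.2% and 89.9%. The median fold was 13.75, 26.2, 45.0 and 61.4 on X against 14.95, 22.6, 32.3 and 41.7. At 15 to 30 scaled reads, input was at 0 reads in 44.5% of X and 26.2% of autosomal regions. The strongest X region was an intronic one at Phex, an endopeptidase gene, with 246 against 10.4 (chromosome X, 153766460 to 153766690). Chromosome Y had 2 regions, at Tspy-ps and Uty, with 25.7 and 19.4.

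Repeats made up 8775 regions, with 31.2-fold (30.8 to 31.7) against 27.8 outside repeats. The median fold was 23.4 against 21.8, while the median TLE3 value was lower in repeats (33.1 against 36.8) and the called shares were 30.7% (29.7 to 31.7%) and 31.2% (30.8 to 31.7%). DNA transposons had 35.1 and LINEs 34.5, LTR elements 29.4, SINEs 27.3 and 106 simple repeats 20.4. The strongest LINE region was at Dusp22 (230.2 scaled reads, 3.90 of input) and the strongest LTR region at Tle4. Input was lower in LINEs (mean 1.29) and higher in simple repeats (1.88) than in all regions.

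Within promoters the base composition went with input. RefSeq held a single start site for 196 of the 415 genes with a region within 250 b of it, and 197 regions lay there. This comparison was chosen after the values had been seen. Where the promoter had under 50% GC, mean TLE3 was 51.3 scaled reads, mean input 2.25 and the fold 22.8 (20.4 to 25.5, 97 regions). At 60% GC or more, mean TLE3 was 49.0, mean input 3.22 and the fold 15.2 (13.2 to 17.7, 39 regions). H6pd and Osmr, printed above, lie at the 2 ends of this scale. Promoters with GGGCGG had 15.2-fold (13.7 to 17.0) and those without it 21.4 (19.5 to 23.5). Of the matched promoters 49.0% had under 50% GC, against 32.0% of all 14731 promoters of the table.

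C/EBP, AP-1, nuclear receptor and EBF motifs were found in a larger share of these promoters than of all promoters, searched on both strands from 250 bases before to 50 after the start. TTGCNNAA, which C/EBP factors bind, stood in 24.5% (19.0 to 31.0%) of the 196 against 10.3% of all. TGANTCA stood in 18.4% (13.6 to 24.4%) against 7.09%, and AGGTCA, one arm of the site that PPARγ binds with RXR, in 22.4% (17.2 to 28.8%) against 14.4%. The EBF motif stood in 3.57% (1.74 to 7.19%) against 0.883%. GGGCGG stood in 36.2% (29.8 to 43.2%) against 45.3%. Intervals of CTTTGA (16.8%, all promoters 15.3%), TGTGGT (15.8%, 15.5%), CACGTG (7.14%, 7.72%) and CCAAT (39.3%, 39.6%) held the share of all promoters. The NFI motif stood in 0 of 196 and in 0.0271% of all. Promoters with AGGTCA had a median TLE3 of 56.2 scaled reads and the others 37.8, at folds of 18.2 (15.9 to 21.0) and 19.0 (17.5 to 20.6). Medians were also higher with the EBF motif (63.6 against 38.1, 7 regions), TGTGGT (47.3, 37.8), TTGCNNAA (45.7, 38.9), CCAAT (44.1, 37.3) and GGGCGG (41.5, 37.8). They were lower with CTTTGA (32.6 against 40.2), TGANTCA (37.3, 38.9) and CACGTG (38.4, 38.9). A match is letters in a window and no proof of binding, and base composition differs between the sets.

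By gene, 11057 genes were the nearest to a region within 50 kb. Of these 4790 had 1 region, 1500 at least 5 and 152 at least 10. Nedd9, a scaffold of focal adhesions, had the most, 25, with a summed 1175 scaled reads of TLE3 over 50.7 of input. Dlc1, a GTPase-activating protein, had 24 with the highest sum, 1624 over 43.6, a fold of 37.3 (29.2 to 48.2). Pparg, which encodes PPARγ, had 19 with 1129 over 46.2, a fold of 24.4 (19.3 to 31.4). Its strongest region was in intron 5 of 7 (236.5 against 7.16).

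Next by number of regions came genes of several kinds. Sh3kbp1, an endocytic adaptor on the X chromosome, had 19 (788 over 15.6). Mitf, a helix-loop-helix factor, had 18, Foxp1, a forkhead factor, 17, and Palld, an actin organiser, 17. Fstl1, a secreted glycoprotein, had 16, and Elmo1 and Epb41l2 15 each. Also in the top 10 by sum were Gm10248 (1158), Galnt2 (1039.5) and Mir21a (982), the last the gene of microRNA 21. Folds of these genes ran from 22.0 at Fstl1 to 50.5 at Sh3kbp1.

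For the gene lists, each region counted only for the gene named as nearest. A gene said to have no region may thus still lie near one that was assigned to a neighbour. Gene lists for functions and cell types were set beside all 21900 protein-coding genes, of which 42.4% had a region within 50 kb. The lists were chosen with earlier results known. The same share was 32 of 35 for adipocyte identity and lipid storage, 16 of 17 for insulin signalling and 6 of 6 for the Groucho family. It was 13 of 16 for stromal progenitors, 16 of 25 for thermogenesis, 12 of 19 for depot patterning and 15 of 22 for Groucho-recruiting factors with Wnt or Notch targets. Nuclear oxidative phosphorylation had 8 of 24. Among other cell types, 5 of 10 macrophage, 6 of 8 endothelial, 5 of 7 mesothelial, 2 of 9 muscle, 7 of 8 neuronal and 2 of 8 hepatocyte genes had one. A nearby region is no measure of the gene's expression or of the cells present.

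Regions of adipocyte genes had more TLE3 and more input than the average region near a protein-coding gene. Their 121 regions had a mean TLE3 of 55.7 scaled reads and a mean input of 2.47, against 46.8 and 1.81 for all protein-coding genes. The pooled fold was 22.5 (20.5 to 24.8) against 25.8 (25.6 to 26.0). Stromal progenitor genes had a mean of 59.6 over an input of 1.69, 35.2-fold (30.2 to 41.3), and depot-patterning genes 60.3 over 1.75, 34.4-fold (28.9 to 41.2). Insulin signalling genes had 48.5 over 2.19, 22.2-fold (19.5 to 25.3), and thermogenic genes 44.4 over 1.64, 27.1-fold (22.4 to 33.0). Groucho genes had the highest means of both, 84.7 over 4.13 in 20 regions, 20.5-fold (17.2 to 24.7).

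**Figure D5:**
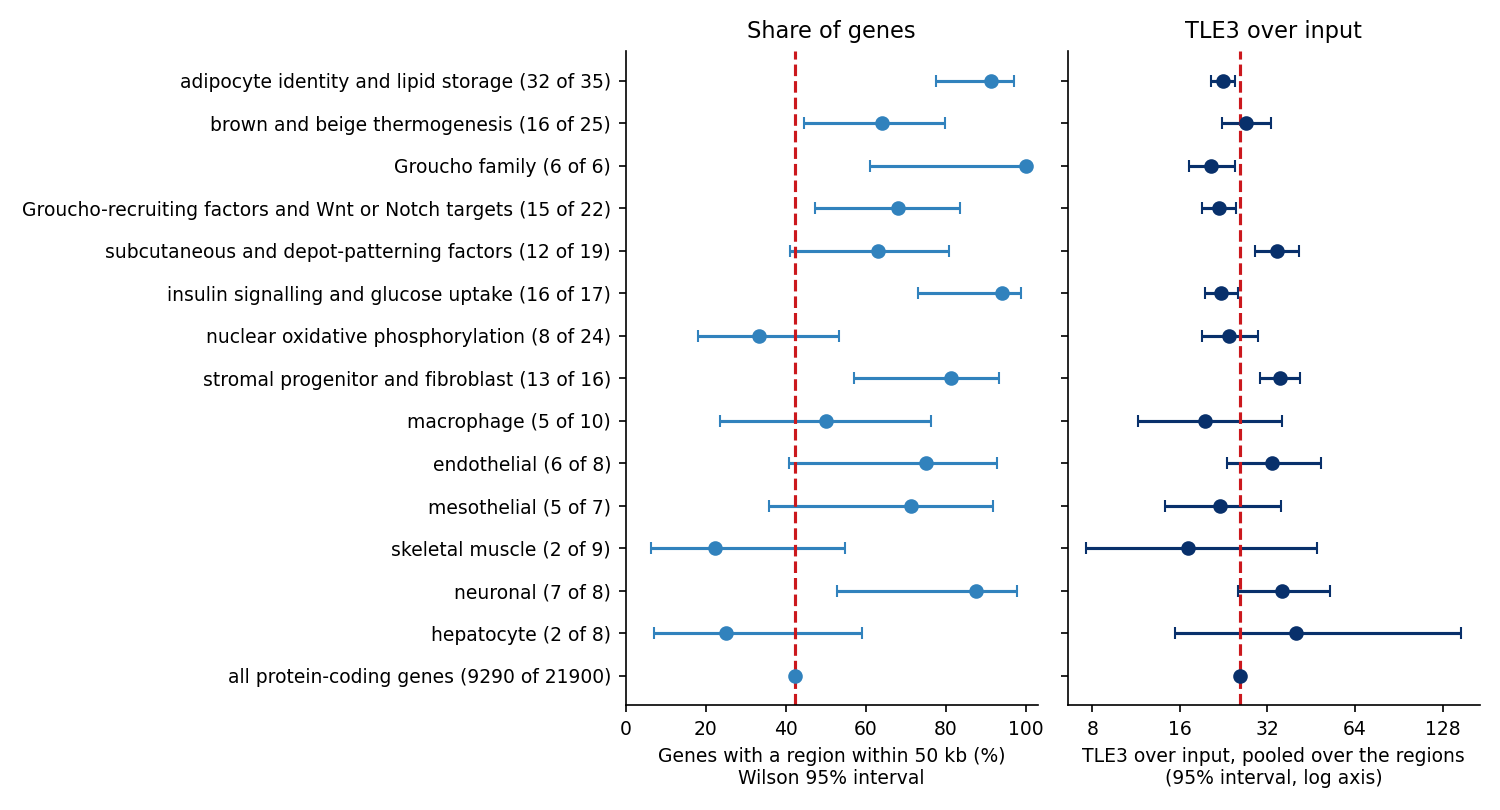
Share of each list's genes that were the nearest gene to a region within 50 kb (left, Wilson 95% intervals). The right panel gives pooled TLE3 over input at these regions (95% counting intervals, log axis). Dashed lines mark all protein-coding genes, 42.4% and 25.8-fold; adipocyte genes lie right of the first line and left of the second.

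In the adipocyte list the strongest regions were at Pparg, Mgll, a monoglyceride lipase (220 against 11.1, in intron 2), and Scd1, a fatty acid desaturase (173 against 5.86). Adipoq, the adiponectin gene, had 170 against 6.51 at 2.02 kb upstream, 26.1-fold (14.0 to 54.9). Of the 35 genes 12 had a promoter region, against 3.30% of all protein-coding genes. Fabp4, a fatty acid carrier, had 4 regions with 141 over 2.60. Cebpd, Plin1 and Rbp4 had none within 50 kb, and the nearest of 8 at Cebpd, a C/EBP factor, was 61.1 kb away.

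Among insulin signalling genes, Insr, the insulin receptor, had 10 regions (511 over 20.2, strongest 134 against 3.25). Pfkl, a glycolytic enzyme gene, had one of 132 against 4.56. Slc2a1, the basal glucose transporter gene, had none. In the thermogenic list, Adrb1, the β1-adrenergic receptor, had a region of 189 against 7.81, Ucp1, the uncoupling protein, 117 against 7.16 and Tmem26 113 against 1.95. No region was assigned to Prdm16, Cox8b, Esrra, Fgf21, Ckb, Kcnk3 and P2rx5 at any distance. Esrrg had 6 and Bmp7 1 beyond 50 kb, the nearest at 86.9 and 129 kb. For Uqcrc1 (108 against 2.60), Atp5g3 (93.5 against 4.56) and Cox6c (78.3 against 4.56) the oxidative phosphorylation list gave its strongest values. Among its 16 members with none were Ndufa1, Ndufb8, Ndufs1, Ndufv1, Sdha, Sdhb, Sdhc, Uqcrc2, Uqcrb, Cox4i1, Cox5a, Cox5b, Cox7c, Atp5a1 and Atp5b.

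The Groucho genes differed among themselves. Tle4 had 218 scaled reads over 1.30 of input (2 reads) in an LTR element 22.4 kb upstream, 168-fold (46.1 to 1389). Tle3, the gene of the protein under study, had 10 regions with 765 over 48.8, 15.7-fold (12.4 to 20.04), the strongest 176 against 9.76. Tle2 had 185 against 9.76, Tle6 148 against 7.16, Tle1 98.8 against 7.81 and Aes 27.9 against 2.60. The regions named for Tle2, Tle6 and Aes are neighbours on chromosome 10 (starts 81033587, 81059446 and 81026926, mm9), so the 6 genes are not 6 separate loci. Among the factors that recruit Groucho proteins and their targets, Lgr5, a Wnt target, had one region of 213 against 2.60, 81.9-fold (31.7 to 302). Hes1, a Notch target that binds Groucho proteins, had 147 against 10.4 at its promoter, and Heyl 130.3 against 3.90. Lef1, Sp5, Ccnd1, Hey1 and Hey2 had none within 50 kb but 9, 4, 3, 1 and 1 farther away. None was assigned to Nrarp and Six4 at any distance.

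For depot patterning, Sfrp2, a Wnt antagonist, had 176 against 0.650 (1 read), 271-fold with an interval from 48.2 to 10721. Ebf3 had 124 against 1.95, Wt1 117 against 3.25 and Tbx15, a T-box factor of subcutaneous fat, 9 regions with 562 over 10.4. Nr2f1, Tcf21, Shox2 and Zic1 had none within 50 kb but 23, 11, 5 and 3 farther away, the nearest at 206, 55.3, 131 and 292 kb. No region was assigned to Hoxc9, Hoxa5 and Emx2 at any distance. Pdgfrb, a stromal growth factor receptor, had 192 against 3.90, Dpt, a matrix protein, 149.8 against 5.21 and F3, tissue factor, 146 against 2.60. Pdgfra, Pi16 and Icam1 of that list had none.

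The strongest region per gene had a median of 23.1 scaled reads for muscle, 28.4 for macrophage, 30.2 for hepatocyte, 49.9 for mesothelial, 62.0 for neuronal and 80.4 for endothelial genes with a region. It was 73.3 for adipocyte and 49.4 for all protein-coding genes. The strongest macrophage values were 43.6 at Mrc1, 28.9 at Csf1r and 28.4 at Ptprc, and Emr1, Cd68, Itgam, Lyz2 and Cd14 had none. For endothelial genes they were 131 at Kdr, 107 at Vwf and 104 at Tek, with none at Esam and, within 50 kb, none at Cdh5, which had 8 farther away. Mesothelial genes gave 107 at Upk3b, 51.5 at Krt19 and 49.9 at Gpm6a, and none at Msln and Krt18. Neuronal genes gave 123 at Syt1, 111 at Snap25 and 75.2 at Rbfox3, whose 2 regions had 0 input reads, and none within 50 kb at Stmn2, which had 1 at 71.0 kb. Muscle genes gave 28.9 at Myog and 17.3 at Myh1, and none at Myod1, Ckm, Acta1, Des, Tnnt3 and Pax7. Myf5 had 1 at 87.2 kb. Hepatocyte genes gave 39.4 at Alb and 21.0 at Ttr, and none at Apoa2, Cyp3a11, Tat, F2, Fgb and Hnf4a.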

How the data were processed

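ChIP-seq values came from the deposited inguinal TLE3 table, merged with the epididymal and brown-fat tables. The submitters' processing notes name STAR, HOMER and mm9 and give no versions. The deposited values are a signal, reads per region scaled by the authors to 1 library total, per the file headers and the values. The peak caller and its control are not given in the sources used here. All values were whole multiples of a step (100% within 0.1 read), from which reads were recovered.

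Folds are ratios of summed values, with 95% intervals by Clopper and Pearson's exact method, computed from the reads, and shares carry Wilson 95% intervals. With 1 library per group no test was possible, and the values were not rescaled. Promoter sequences came from RefSeq.

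Named regions were the 10 highest by value and by lower bound of the fold, the 5 of highest input, 10 promoters, the strongest per class and the 3 nearest each side of each limit. Named genes were the 10 with most regions and with the highest sums, and per list the 3 with the strongest region plus all without one. Other names were chosen after their values were seen. They are the genes nearest to the strongest regions beyond 500 kb, on X and in repeats, those of the Y regions, and some list genes. A few genes that these rules name are not reported here. The members and lists were chosen with earlier results of these data known. Alternatives covered scaling, minimum values, added reads, chromosomes, repeats, distances and windows. The functions were tested on simulated data. Python 3.11.15, numpy 2.4.6, pandas 2.3.3, scipy 1.17.1 and matplotlib 3.10.9 were used.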

Additional observations from a re-analysis of the deposited data

How the results depend on the processing

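No paired analysis was possible because each group held 1 library. With 1 library per group none was left out. Of 87 alternative values 57 stayed within the 95% interval of the reported value (counts of genes within 1.5 times it). The other 30 fell outside these limits. Only the log2 ratios of folds between groups of regions carry a sign, and 0 of these turned it. Folds, shares and gene counts carry none, but the list shares were set beside the share of all protein-coding genes. From 30 scaled reads, macrophage genes went from 5 of 10, against 42.4% of all, to 1 of 10, against 31.3%. At 10 kb endothelial and neuronal genes each had 2 of 8, against 25.4%. At 50 kb they had 6 and 7 of 8, against 42.4%. Scaling on reads outside the regions left the ratios for promoters (-0.52) and for regions within 1 kb (-0.51) unchanged, because the factor cancels. These unchanged ratios are thus no test of the direction.

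For all regions, the pooled fold of 28.3 became 38.0 with libraries scaled on reads outside the regions, 29.1 and 32.1 from 30 and 60 scaled reads, 20.6 with 1 read added to both libraries and 27.8 outside repeats. The share called, 31.1%, became 49.3%, 48.4%, 73.2% and 21.0% under the first 4 of these settings. It was 77.8% with the lower bound above 5 and 6.68% above 20.

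Promoters against the rest differed by a log2 ratio of folds of -0.52. It was -0.59 from 60 scaled reads and -0.38 with 1 read added. Regions within 1 kb against the rest gave -0.51. That became -0.56 from 60 scaled reads, -0.38 with 1 read added and -0.56 within 500 b. From 60 scaled reads, repeats against the rest went from 0.17 to 0.23 and X against autosomes from 0.56 to 0.72. The autosomal value beyond 500 kb was added after seeing the data.

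A window of 10 kb left 6564 of 11057 genes with a region. Over the whole lists it left 6 of 19 depot-patterning genes (12 at 50 kb), 4 of 24 for oxidative phosphorylation (8) and 3 of 10 macrophage genes (5). It left 2 of 8 endothelial (6), 2 of 7 mesothelial (5) and 2 of 8 neuronal genes (7). The share of all protein-coding genes went from 42.4% to 25.4%. From 30 scaled reads, 1 of 10 macrophage, 3 of 7 mesothelial, 0 of 9 muscle and 1 of 8 hepatocyte genes remained with a region. The share of all protein-coding genes was then 31.3%. The CACGTG share was 3.95% with regions within 100 b. Weak regions limit the precision: at the lower limit a fold rests on 29 TLE3 reads and a few input reads.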
